A study of Mus musculus with 7 samples.

Results

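The 10 genes described here, Pdgfra, Cspg4, Vcan, Xylt1, Neu4, Olig1, Olig2, Sox10, Pcdh15 and Lhfpl3, mark oligodendrocyte precursors or the whole oligodendrocyte lineage. They were taken by symbol from the 32285 genes of a single-nucleus RNA sequencing study of mouse brain, and every one of the 10 symbols was found. The mice carried the 5xFAD transgene set (labelled 5xFAD +/-), a model of Alzheimer's disease in which mutant human amyloid precursor protein and presenilin are made under the neuronal Thy1 promoter. Each mouse received an adeno-associated virus (AAV) behind the eye at 4 months of age and was examined 2 months later, at 6 months. The ANGPT2 group (4 mice) received a virus for ANGPT2, angiopoietin-2, a secreted antagonist of the endothelial receptor Tie2, and the control group (3 mice) received a control virus. The promoter and target cells of the vector are not given in the sources used here. Every mouse was 5xFAD and AAV-injected, so no library used here came from a mouse without the transgenes or without a virus. The ANGPT2 group held a male and a female in each of 2 batches, and the control group held a male and a female in batch 1 and a male in batch 2. One library was made per mouse from frozen tissue that the labels name as subcortex, thalamus and hippocampus.

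Oligodendrocyte precursors are the dividing glial cells of the adult brain from which myelin-forming oligodendrocytes arise. A precursor that leaves the cell cycle passes through a short committed stage, loses its receptor for platelet-derived growth factor and its surface proteoglycans, and then turns on the myelin genes. The transcription factors that set up the lineage, in contrast, are kept through these stages.

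Pdgfra (ENSMUSG00000029231, chr5:75152292-75198215, plus strand) encodes the receptor for platelet-derived growth factor A, the main mitogen of precursors. Cspg4 (ENSMUSG00000032911, chr9:56865033-56899870, plus strand) encodes NG2, a membrane-spanning chondroitin sulfate proteoglycan. Vcan (ENSMUSG00000021614, chr13:89655312-89742509, minus strand) encodes versican, a secreted chondroitin sulfate proteoglycan of the extracellular matrix. Xylt1 (ENSMUSG00000030657, chr7:117380979-117673580, plus strand) encodes a xylosyltransferase that starts the sugar chains of such proteoglycans. Neu4 (ENSMUSG00000034000, chr1:94020451-94028334, plus strand) encodes a sialidase. Olig1 (ENSMUSG00000046160, chr16:91269772-91271933, plus strand) and Olig2 (ENSMUSG00000039830, chr16:91225457-91228677, plus strand) are neighbouring genes for basic helix-loop-helix transcription factors. Sox10 (ENSMUSG00000033006, chr15:79154908-79165240, minus strand) encodes an HMG-box transcription factor that is needed for myelin gene expression. Pcdh15 (ENSMUSG00000052613, chr10:73099342-74649737, plus strand) encodes a protocadherin best known from the tip links of inner-ear hair cells. Lhfpl3 (ENSMUSG00000106379, chr5:22746059-23275597, plus strand) encodes a tetraspan membrane protein. All positions are those of GENCODE on GRCm38, the build of the deposited counts, and each is the whole gene, introns included. The genes span 2162 bases for Olig1 and 1550396 bases for Pcdh15, so levels are compared between cell classes and libraries and never between genes. Annotated genes overlap some members. Gm15397 on the same strand and Gm15398 on the opposite strand overlap Pcdh15, while 6030443J06Rik on the same strand and A930003O13Rik and Gm42948 on the opposite strand overlap Lhfpl3. Gm42802, Gm4117 and Gm15966 overlap Pdgfra, Vcan and Olig1 from the opposite strand, so the counts of these 5 members are less certain where reads could be assigned to either gene.

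The bases before the start of 5 members are shown because these genes carry the pattern described here, a high level in precursors that falls along the lineage. The sequences are RefSeq promoter windows (GRCm38.p6), written 5′ to 3′ on the strand of the gene and ended before the GENCODE gene start. Capitals mark E-boxes, CANNTG, the hexamer read by basic helix-loop-helix factors such as Olig1 and Olig2.
Pdgfra chr5:75152001-75152250, plus strand: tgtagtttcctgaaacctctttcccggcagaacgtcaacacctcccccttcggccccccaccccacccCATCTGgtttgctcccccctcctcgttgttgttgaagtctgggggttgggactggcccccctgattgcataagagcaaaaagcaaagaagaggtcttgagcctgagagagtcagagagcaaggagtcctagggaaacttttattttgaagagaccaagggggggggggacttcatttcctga
Cspg4 chr9:56864854-56865032, plus strand: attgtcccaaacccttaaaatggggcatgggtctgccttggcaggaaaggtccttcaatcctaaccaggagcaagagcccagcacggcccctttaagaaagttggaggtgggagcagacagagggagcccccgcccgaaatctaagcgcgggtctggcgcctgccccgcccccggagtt
Vcan chr13:89742513-89742762, minus strand: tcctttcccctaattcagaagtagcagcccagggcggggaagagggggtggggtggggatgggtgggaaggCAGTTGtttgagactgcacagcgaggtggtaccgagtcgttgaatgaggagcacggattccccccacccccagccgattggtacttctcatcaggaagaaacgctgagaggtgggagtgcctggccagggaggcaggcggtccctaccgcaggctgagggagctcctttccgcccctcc
Neu4 chr1:94020243-94020450, plus strand: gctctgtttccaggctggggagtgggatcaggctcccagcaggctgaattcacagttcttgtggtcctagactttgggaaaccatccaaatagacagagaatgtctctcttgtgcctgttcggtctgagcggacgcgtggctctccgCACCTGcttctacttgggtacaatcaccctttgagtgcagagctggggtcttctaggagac
Lhfpl3 chr5:22745804-22746053, plus strand: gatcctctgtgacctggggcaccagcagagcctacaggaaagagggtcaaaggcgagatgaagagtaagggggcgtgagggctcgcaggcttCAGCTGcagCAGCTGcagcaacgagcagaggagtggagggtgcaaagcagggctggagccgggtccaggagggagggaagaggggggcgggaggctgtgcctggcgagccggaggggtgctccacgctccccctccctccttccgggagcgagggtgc
The RefSeq table held a window for 7 of the 10 members, without Xylt1, Olig1 and Sox10. Over the whole windows of 250 bases, an E-box on either strand was present in 5 of these 7. These were Pdgfra, Vcan, Neu4, Pcdh15 and Lhfpl3, and the share over all 32851 windows of the same length was 66.2%. A SOX motif, spelled ACAAAG or ACAATG and read on both strands, was present in 1 of the 7, Olig2, against 25.2% of all windows. Whole windows were placed by RefSeq and do not all lie before the GENCODE start. The Pcdh15 window (chr10:73821617-73821866) lies inside the GENCODE gene, and those of Cspg4, Neu4 and Olig2 run past the GENCODE start of the gene. The SOX match of Olig2 lies beyond that start. These matches describe letters in the windows and are not binding sites.

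The deposited matrices held 58286 nucleus barcodes in 7 libraries, with 25466033 to 100529717 unique molecular identifiers (UMIs, each marking 1 counted RNA molecule) per library. The 3 libraries of batch 2 were the shallowest, at 25466033 to 32526932 UMIs. After removal of 1 barcode with few genes, 116 with a high mitochondrial share and 3939 called doublets, 54230 nuclei were kept. The same barcode sequence occurred in more than 1 library for 1941 of 56305 distinct barcodes. Nuclei were clustered with the 10 members left out of the genes used for clustering, and clusters were named from markers that include no member, so the names below mean precursor-like, oligodendrocyte-like and so on. The endogenous Angpt2 gene had 281, 230, 52 and 82 UMIs in the ANGPT2 libraries and 322, 273 and 98 UMIs in the control libraries. Scaled to a total of 1000000 UMIs per library (CPM) these are 2.24 to 4.78 in the ANGPT2 libraries and 3.75 to 4.34 in the control libraries, and the ranges overlap. Whether a transcript made from the vector would be counted under this gene is not given in the sources used here, so this gene does not check the labels.

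The female control of batch 1 stood apart from the other 6 libraries in its neurons. Of 684 nuclei in a second dentate granule neuron cluster, led by Gm6999, Bdnf and Pappa and holding Nr4a2 among its leading genes, 676 came from this library, which had 1 nucleus among the 1598 of the other dentate cluster. Its Pcdh15 and Xylt1 levels were above those of the other 6 libraries in excitatory neurons and in oligodendrocytes. In inhibitory neurons Xylt1 was above them, while Pcdh15 (905.3 CPM) lay within their 525.9 to 968.8 CPM. In astrocytes Pcdh15 was above them, while Xylt1 (412.1 CPM) lay within their 377.8 to 632.1 CPM. The log2 changes of both genes named below are also given without this library.

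Precursor-like nuclei made up a single cluster of 1139 nuclei, 98 to 214 per library, with 287800 to 1071450 summed UMIs per library. All 11 precursor markers outside the members, among them Tnr, Megf11 and Sox6, were detected in it. Committed precursor-like nuclei made up a cluster of 197 nuclei, 15 to 41 per library, with 53693 to 328219 summed UMIs, and all 9 of its markers, among them Gpr17, Bmp4 and Enpp6, were detected. Oligodendrocyte-like nuclei made up 3 clusters of 10562 nuclei. These names are shortened to precursors, committed precursors and oligodendrocytes. In control libraries the 12 oligodendrocyte markers summed to 13465 to 20657 CPM in committed precursors. They summed to 603.0 to 807.3 CPM in precursors and 17865 to 21565 CPM in oligodendrocytes. The 11 precursor markers summed to 8705 to 13916 CPM in committed precursors and 11208 to 12643 CPM in precursors. The committed cluster thus held markers of both, and its name does not mean a stage before the oligodendrocyte markers are on.

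Of the 10 members, 9 had their highest mean level in precursors among the 17 cell classes, and Sox10 had its highest in committed precursors. Levels in a class are CPM too, with the UMIs of the class in a library scaled to 1000000. They are given as mean ± SD over the 7 libraries, or over 5 for choroid plexus and 3 for other inhibitory neurons. Comparisons between classes are descriptions without a test. In 8 members the precursor level was above the committed precursor level in every one of the 7 libraries, and in 9 members it was above the oligodendrocyte level in every library. The exceptions in the first comparison were Neu4 and Sox10, and the exception in the second was Olig1.

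Pdgfra averaged 688.5 ± 53.3 CPM in precursors, 8.60 ± 7.10 CPM in committed precursors and 10.7 ± 0.687 CPM in oligodendrocytes. The mean of the growth factor receptor gene was 80.1 times higher in precursors than in committed precursors, which were at the level of oligodendrocytes and of microglia (10.6 ± 6.57 CPM). In committed precursors 1 library, the male control of batch 2, had no Pdgfra UMI, which allows a level of up to 55.9 CPM, so its level there is known only as far below that of precursors. Cspg4 averaged 283.8 ± 44.8 CPM in precursors, 18.2 ± 18.7 CPM in committed precursors and 3.11 ± 0.987 CPM in oligodendrocytes. The mean of the NG2 gene was 15.5 times higher in precursors than in committed precursors, and the precursor level was the higher in each of the 7 libraries. The ANGPT2 female of batch 2 had no Cspg4 UMI in committed precursors, which allows up to 55.9 CPM, so the size of this step is uncertain.

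Vcan averaged 1567 ± 189 CPM in precursors, 687.0 ± 285 CPM in committed precursors and 11.3 ± 2.41 CPM in oligodendrocytes. The versican gene lost most of its level later than Pdgfra did. The precursor level was 2.28 times the committed level, and the committed level was 60.6 times the oligodendrocyte level. Xylt1 averaged 2892 ± 410 CPM in precursors, 477.5 ± 222 CPM in committed precursors and 39.5 ± 12.1 CPM in oligodendrocytes. Its level was lower at both steps in all 7 libraries, by 6.06 times at the first and 12.1 times at the second. Neu4 averaged 248.7 ± 73.6 CPM in precursors, 220.5 ± 80.1 CPM in committed precursors and 1.67 ± 0.666 CPM in oligodendrocytes. The sialidase gene was higher in precursors than in committed precursors in 5 of 7 libraries, a step within the spread over libraries, and was 132 times higher in committed precursors than in oligodendrocytes.

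The transcription factors changed far less across the same stages. Olig1 averaged 154.1 ± 27.3 CPM in precursors, 86.9 ± 24.2 CPM in committed precursors and 136.7 ± 31.0 CPM in oligodendrocytes, and it was lowest of the 3 stages in committed precursors in every library. Olig2 averaged 178.7 ± 46.0 CPM in precursors, 112.1 ± 23.0 CPM in committed precursors and 71.1 ± 30.7 CPM in oligodendrocytes, with the precursor level 2.51 times the oligodendrocyte level. Sox10 averaged 146.9 ± 29.0 CPM in precursors, 236.3 ± 62.0 CPM in committed precursors and 101.4 ± 18.6 CPM in oligodendrocytes. It was the one member that was higher in committed precursors than in precursors in all 7 libraries, by 1.61 times on average.

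Pcdh15 averaged 4581 ± 408 CPM in precursors, 419.9 ± 155 CPM in committed precursors and 413.8 ± 78.5 CPM in oligodendrocytes. The protocadherin gene was 10.9 times higher in precursors than in committed precursors. Committed precursors were above oligodendrocytes in 4 of 7 libraries and did not differ from them beyond the spread. Lhfpl3 averaged 7896 ± 819 CPM in precursors, 1373 ± 541 CPM in committed precursors and 81.4 ± 12.2 CPM in oligodendrocytes. Its level was lower at both steps in all 7 libraries, by 5.75 times at the first and 16.9 times at the second.

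**Figure D1:**
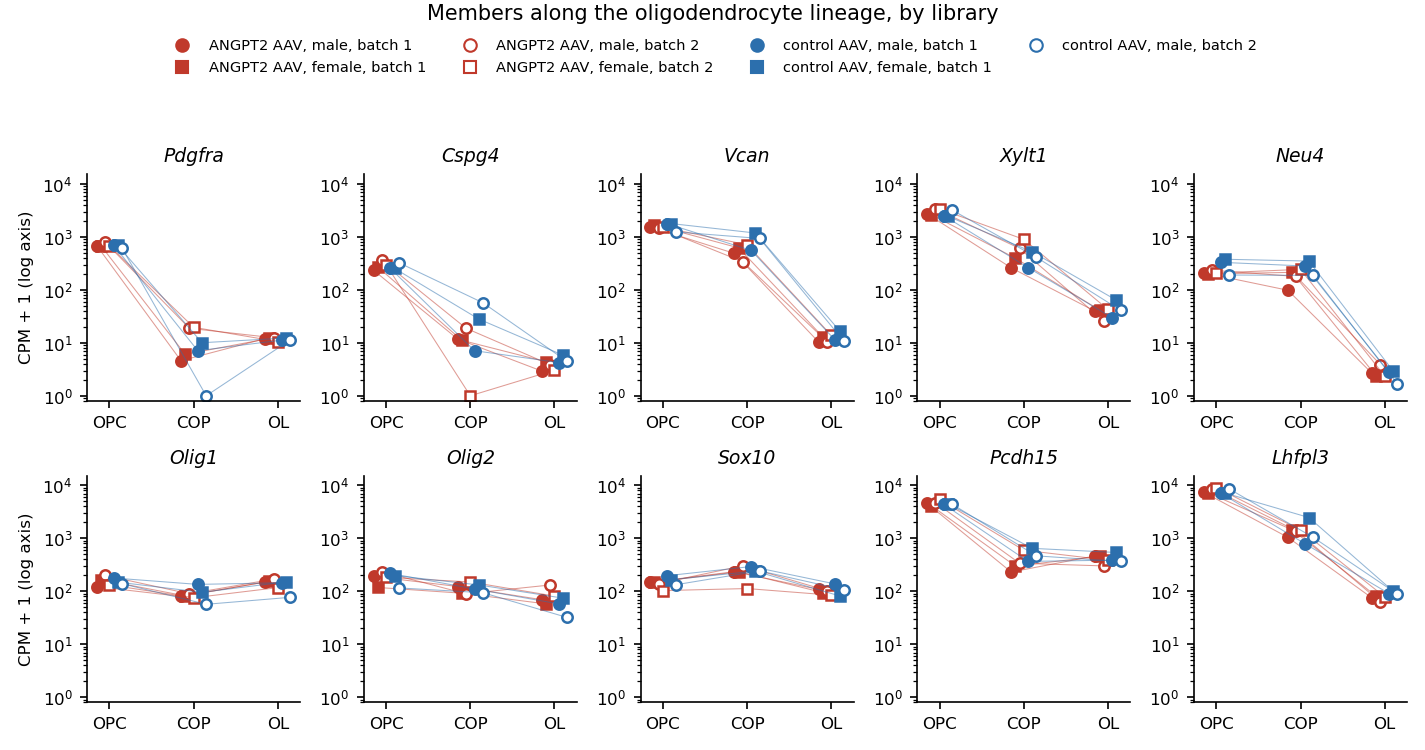
Level of each member (CPM + 1, log axis) in precursors (OPC), committed precursors (COP) and oligodendrocytes (OL), with 1 point per library joined by lines, ANGPT2 libraries in red left of control libraries in blue, circles for males, squares for females, filled for batch 1 and open for batch 2. Pdgfra and Cspg4 are low from the committed stage on, Vcan, Neu4 and Lhfpl3 are low only in oligodendrocytes, and Olig1, Olig2 and Sox10 stay within a narrow range at all 3 stages.

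The share of nuclei with a UMI of a member was also taken after each nucleus was thinned to 500 UMIs, a depth that every nucleus of these classes reached. Pdgfra was then detected in 30.4% of precursors (exact 95% binomial interval 27.7 to 33.1%), in 0 of 197 committed precursors, which allows a share of up to 1.52%, and in 0.596% of oligodendrocytes. Microglia, which should lack the gene, gave 0.364%. Vcan was detected in 50.0% of precursors (47.1 to 53.0%), 25.9% of committed precursors (19.9 to 32.6%) and 0.587% of oligodendrocytes, with 0.327% of microglia. Neu4 was detected in 9.83% of precursors (8.17 to 11.7%), 15.7% of committed precursors (10.9 to 21.6%) and 0.0852% of oligodendrocytes, with 0.0364% of microglia. For Neu4 this order is the opposite of that of the mean levels, and the precursor and committed precursor intervals overlap. Lhfpl3 was detected in 94.3% of precursors and Pcdh15 in 87.5%, against 35.03% and 15.7% of committed precursors. Microglia gave 2.73% for Lhfpl3 and 5.89% for Pcdh15. Sox10 was detected in 6.50% of precursors, 9.14% of committed precursors and 5.01% of oligodendrocytes, with 0.218% of microglia. Before thinning, at medians of 3583, 5678, 1954.5 and 1492 UMIs per nucleus, Pdgfra was detected in 80.0% of precursors, 4.06% of committed precursors, 2.04% of oligodendrocytes and 1.89% of microglia. The intervals cover counting error only.

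Counted together at 500 UMIs, a precursor nucleus showed a mean of 3.79 of the 10 members, a committed precursor 1.28, an oligodendrocyte 0.396 and a microglial nucleus 0.231. At least 1 member was detected in all but 0.439% of precursors, and 25.2% of precursors held 5 or more. No committed precursor and no oligodendrocyte held 5 or more members at this depth. This depends on the thinning, since 11.4% of committed precursors held 5 or more at 1000 UMIs. Before thinning, 91.7% of precursors, 48.2% of committed precursors and 0.350% of oligodendrocytes did.

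Outside the lineage several members were also found in other classes. Pdgfra was next highest in fibroblast-like nuclei of the meninges and vessels, at 176.8 ± 136 CPM, with the precursor level higher in 7 of 7 libraries. Cspg4 was next highest in mural cell-like nuclei, where NG2 marks pericytes, at 149.4 ± 103 CPM, and the precursor level was again higher in 7 of 7. Olig1 averaged 19.0 ± 2.75 CPM in astrocytes and 17.9 ± 6.01 CPM in microglia, and Olig2 8.52 ± 3.64 CPM in astrocytes and 6.48 ± 1.89 CPM in microglia. Neither gene differed between these classes beyond the spread over libraries. Xylt1 averaged 482.1 ± 106 CPM in astrocytes, which was the level of committed precursors, and 308.6 ± 91.2 CPM in microglia.

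Most neuron classes held Pcdh15 and Lhfpl3, at levels that varied between classes as those of Xylt1 did. Most other members were near 0 in neurons. In dentate granule neurons Pcdh15 averaged 165.4 ± 212 CPM and Lhfpl3 68.0 ± 34.2 CPM. Microglia had 118.1 ± 83.2 CPM of Pcdh15 and 73.1 ± 50.3 CPM of Lhfpl3. Outside neurons, Pcdh15 averaged 434.3 ± 314 CPM in mural cells and Lhfpl3 220.5 ± 192 CPM in endothelial cells. In excitatory neurons other than thalamic and dentate ones, Pdgfra averaged 1.86 CPM, Cspg4 0.622 CPM, Neu4 0.270 CPM, Olig2 0.835 CPM and Sox10 0.927 CPM. Xylt1 averaged 336.6 ± 60.4 CPM in these neurons, above microglia (308.6 ± 91.2 CPM) in 5 of 7 libraries. It was below the microglial mean in the other neuron classes, at 184.6 ± 43.3 CPM in Lhx6 interneurons and down to 44.9 ± 9.69 CPM in thalamic neurons. Pcdh15 averaged 1208 ± 162 CPM in Lhx6 interneurons, 1206 ± 858 CPM in these other excitatory neurons, 397.5 ± 89.0 CPM in thalamic neurons and 286.1 ± 90.4 CPM in medium spiny neurons. The wide SD in the other excitatory neurons came with the female control of batch 1, at 3144 CPM, while the other 6 libraries lay at 783.9 to 1029 CPM. One excitatory cluster of 116 nuclei, led by Fyb2, Gm49906 and Tshz2, reached 6645 ± 1402 CPM of Pcdh15 over 5 libraries, above the precursors. Lhfpl3 averaged 1213 ± 199 CPM in thalamic neurons, 510.2 ± 93.3 CPM in medium spiny neurons, 384.2 ± 138 CPM in Lhx6 interneurons and 153.4 ± 34.2 CPM in the other excitatory neurons. Thalamic neurons were above medium spiny neurons in 7 of 7 libraries, while committed precursors were above thalamic neurons in only 4 of 7. Thinned to 500 UMIs, Lhfpl3 was detected in 40.3% of thalamic neurons, against 2.73% of microglia. Vcan averaged 76.6 CPM in Adarb2 interneurons, above astrocytes (37.5 ± 15.2 CPM) in 7 of 7 libraries, and 186.0 ± 231 CPM in a further inhibitory cluster present in 3 libraries.

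**Figure D2:**
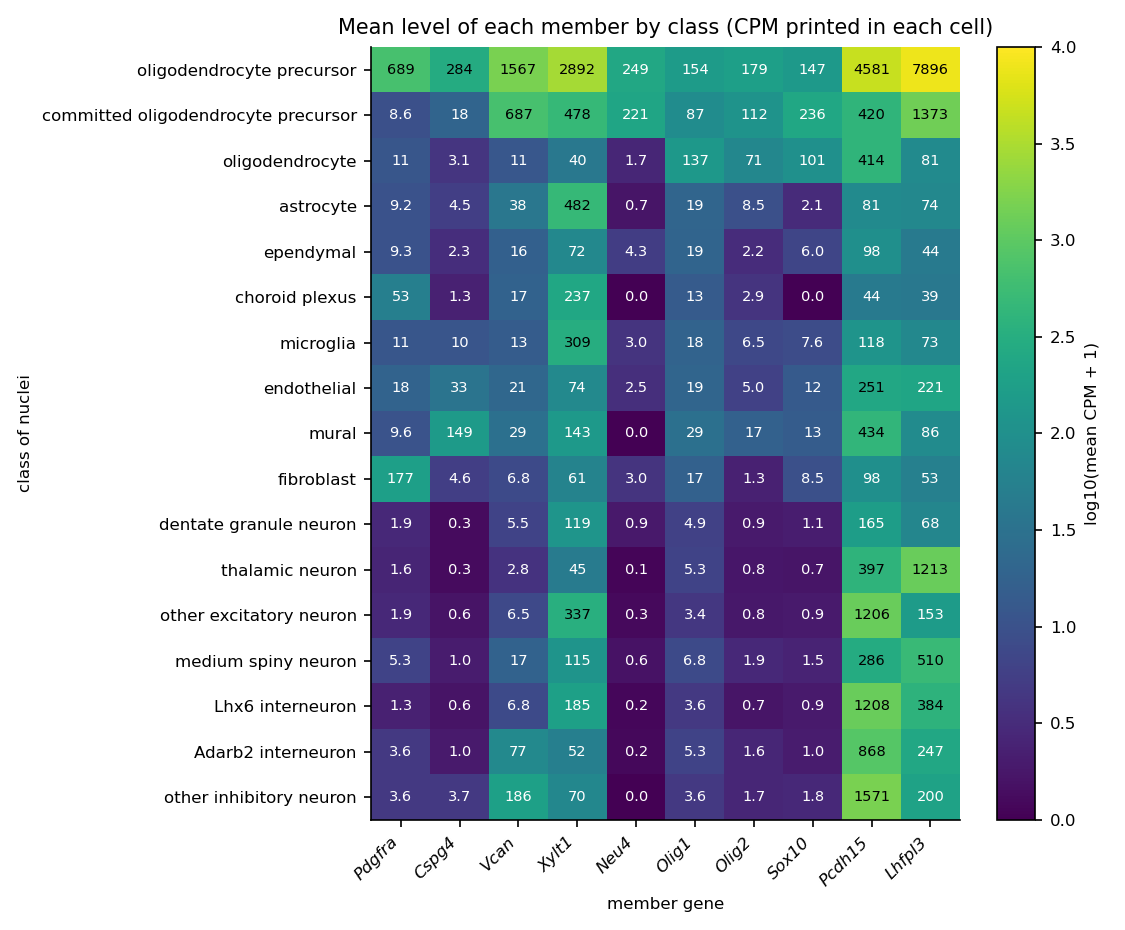
Mean level of each member (columns) in each of the 17 cell classes (rows), shaded by log10 of the mean CPM + 1 and printed as CPM. Precursors are the highest row for every member but Sox10, fibroblasts stand out for Pdgfra at 176.8 CPM and mural cells for Cspg4 at 149.4 CPM. Among neurons the interneuron and other excitatory rows stand out for Pcdh15, and the thalamic and medium spiny rows for Lhfpl3. The dentate granule row stands out for neither, at 165.4 and 68.0 CPM.

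Across the 17 classes the members fell into groups by pattern, given here as Pearson correlations of log2(CPM + 1) between class means. These are descriptions without a test, and the class means are not independent, since they come from the same mice. Choroid plexus means rest on 5 of the libraries and other inhibitory neuron means on 3. Olig2 and Sox10 were the most alike pair (r = 0.938), followed by Olig1 with Olig2 (0.918) and Olig1 with Sox10 (0.917). Pcdh15 and Lhfpl3 were alike at 0.738, and Pdgfra and Pcdh15 were the least alike at 0.0347. Among 12982 other genes, the pattern nearest to Neu4 was that of Gpr17 (0.976), a receptor of committed precursors. Bcas1, a gene of early myelinating cells, was nearest to Sox10 (0.966), and Gjc3, which encodes a glial connexin, was nearest to Olig1 (0.964). Gm10863 (0.936) and then Nkx2-2 (0.934), a lineage homeobox gene, were nearest to Olig2. The nearest gene was Rcn1 for Pdgfra (0.844), Arhgap31 for Cspg4 (0.802), Ckap2 for Vcan (0.861) and Gucy2f for Xylt1 (0.859). It was Tmem196 for Pcdh15 (0.897), with its opposite-strand neighbour Gm15398 in the third place (0.881), and B3gat2 for Lhfpl3 (0.872).

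ANGPT2 AAV was compared with control AAV in the summed UMI counts of each class with edgeR's quasi-likelihood test, with p-values adjusted by Benjamini-Hochberg over all genes tested in the class and a threshold of 0.05. In precursors all 10 members were tested and none passed. No gene of the 8519 tested passed, so 0% were called, and DESeq2 called 0 as well. At an unadjusted p under 0.05 there were 405 genes, 4.75% of those tested, of which 1 was a member, Neu4. By sign, 8 members were above 0, beside 50.6% of all genes tested, and 2 below, beside 49.4%. The median log2 change of the 10 members was 0.08, beside 0.00 over all genes. These signs depended on the processing, with 6 members above 0 with batch as a block, 5 at clustering resolution 2 and 5 without the male control of batch 2, where the median was 0.02.

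Pdgfra in precursors had 680.7, 676.3, 792.2 and 678.6 CPM in the ANGPT2 libraries (batch 1 male, batch 1 female, batch 2 male, batch 2 female), against 694.4, 686.2 and 611.3 CPM in the control libraries (batch 1 male, batch 1 female, batch 2 male). The batch 2 male of the ANGPT2 group was highest and the batch 2 male control lowest, with 3 ANGPT2 values lying between control values, so the groups overlap. Its log2 change was 0.16 ± 0.15 (SE, edgeR adjusted p = 0.940). Cspg4 had 233.2, 269.1, 357.9 and 296.7 CPM in the ANGPT2 libraries, against 252.9, 252.2 and 324.2 CPM in the control libraries, in the same order of mice. The batch 2 libraries were the highest 3 in both groups together, and the log2 change between groups was 0.14 ± 0.17 (adjusted p = 0.963).

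Vcan had 1538, 1659, 1473 and 1510 CPM in the ANGPT2 libraries, against 1773, 1777 and 1239 CPM in the control libraries. The ANGPT2 values all lay between the control values, and the log2 change was 0.02 ± 0.15 (edgeR adjusted p = 0.999). Xylt1 had 2732, 2626, 3381 and 3371 CPM in the ANGPT2 libraries, against 2507, 2436 and 3188 CPM in the control libraries. In each batch every ANGPT2 library was above every control library, while the pooled groups overlap, and batch 2 was the higher batch in both groups. The share of all genes tested with such an order within batches was not counted, so it cannot be said to be unusual. The log2 change was 0.25 ± 0.16 (adjusted p = 0.940), and 0.19 without the female control of batch 1 (adjusted p = 0.996). Within batches the difference was 0.12 in batch 1 and 0.08 in batch 2. Here and below, such within-batch values are differences of mean log2(CPM + 1) without edgeR's scaling factors, so they are not on the same scale as the pooled value.

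Neu4 had 208.9, 198.0, 232.8 and 206.7 CPM in the ANGPT2 libraries, against 329.5, 376.2 and 189.1 CPM in the control libraries. Both batch 1 controls were above every ANGPT2 library, and the batch 2 control was below every one, so the groups overlap. The log2 change was -0.47 ± 0.19 with an unadjusted p of 0.0195 and an adjusted p of 0.940 (edgeR). Within batch 1 the log2 change was -0.79, and within batch 2, with 1 control, it was 0.21. Without the female control of batch 1 the log2 change was -0.28. The direction thus held in 1 of the 2 batches.

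Olig1 had 121.3, 164.5, 198.1 and 131.3 CPM in the ANGPT2 libraries, against 177.3, 147.9 and 138.5 CPM in the control libraries, with a log2 change of 0.00 ± 0.18 (edgeR adjusted p = 0.999). Olig2 had 190.0, 117.1, 232.8 and 182.4 CPM in the ANGPT2 libraries, against 216.5, 197.3 and 114.8 CPM in the control libraries. Each group held 1 low library for Olig2, and the log2 change was 0.02 ± 0.22 (adjusted p = 0.999). Sox10 had 146.9, 147.8, 139.0 and 102.1 CPM in the ANGPT2 libraries, against 196.0, 164.8 and 131.7 CPM in the control libraries. The 2 batch 1 controls were highest and the batch 2 ANGPT2 female was lowest, and the log2 change was -0.26 ± 0.17 (adjusted p = 0.940).

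Pcdh15 had 4580, 4142, 4701 and 5416 CPM in the ANGPT2 libraries, against 4377, 4466 and 4387 CPM in the control libraries. The controls lay within the range of the ANGPT2 libraries, and the log2 change was 0.18 ± 0.15 (edgeR adjusted p = 0.940), or 0.20 without the female control of batch 1 (adjusted p = 0.996). Lhfpl3 had 7425, 7272, 8589 and 9057 CPM in the ANGPT2 libraries, against 7148, 7174 and 8608 CPM in the control libraries. Batch 2 was the higher batch in both groups, and the log2 change was 0.17 ± 0.15 (adjusted p = 0.940). No member separated the groups in precursors without overlap, beside 1.47% of all genes that were higher and 4.61% that were lower in every ANGPT2 library.

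**Figure D3:**
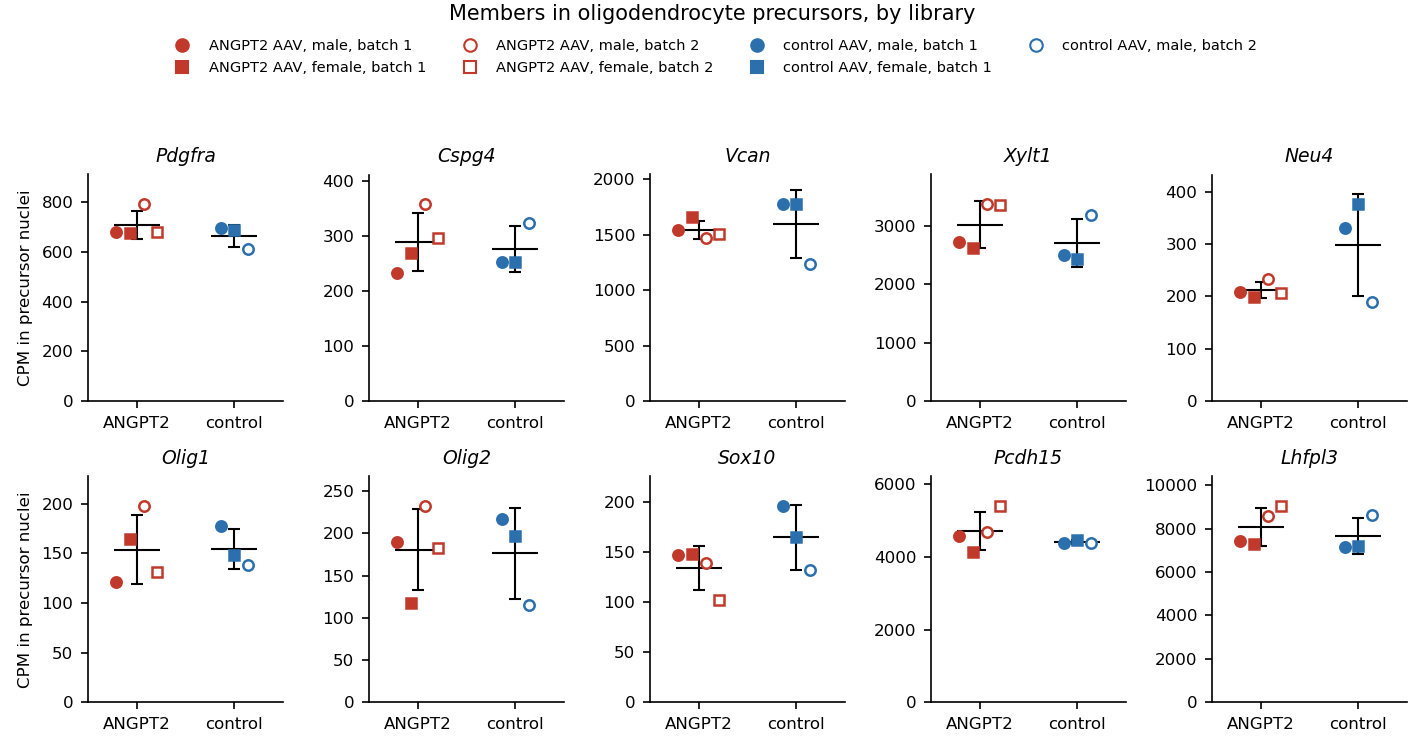
Level of each member (CPM) in precursors, with 1 point per library, ANGPT2 libraries in red on the left and control libraries in blue on the right of each panel, circles for males, squares for females, filled for batch 1 and open for batch 2, and bars for the group mean ± SD. The groups overlap in all 10 panels, and for Neu4 the 2 batch 1 controls stand above the other 5 libraries.

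In committed precursors 8 members were tested, since Pdgfra and Cspg4 were too low for the count filter, and none passed. No gene of the 3748 tested passed edgeR's threshold, so 0% were called, and DESeq2 called 0. At an unadjusted p under 0.05 there were 113 genes, 3.01% of those tested, of which 2 were members. Neu4 had 97.1, 212.6, 177.7 and 242.0 CPM in the ANGPT2 libraries, against 280.3, 347.7 and 186.2 CPM in the control libraries, and the groups overlap. Its log2 change was -0.71 ± 0.33 (unadjusted p = 0.0434, adjusted p = 1.00). By batch it was -1.11 in batch 1 and 0.15 in batch 2, the same signs as in precursors. Vcan had 485.3, 617.6, 337.6 and 707.5 CPM in the ANGPT2 libraries, against 551.5, 1179 and 931.2 CPM in the control libraries. The log2 change of Vcan was -0.69 ± 0.32 (unadjusted p = 0.0478, adjusted p = 1.00), and it was below 0 in both batches, at -0.56 and -0.93. Without the female control of batch 1, which held the highest value of both genes, Neu4 was at -0.54 (unadjusted p = 0.168) and Vcan at -0.40 (unadjusted p = 0.270, edgeR). The other 6 members had log2 changes of -0.49 (Pcdh15) to 0.38 (Xylt1), and without that control these 2 were at -0.23 and 0.67. In all libraries 7 of the 8 members tested were below 0, beside 48.4% of all genes, and 1 above, beside 51.6%. Without that control, 5 were below 0 and 3 above. None separated the groups without overlap, beside 1.87% of genes that did so higher and 2.59% lower.

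In oligodendrocytes 9 members were tested, Neu4 being too low, and none passed. No gene of the 12414 tested passed edgeR's threshold, so 0% were called, and DESeq2 called 0. At an unadjusted p under 0.05 there were 322 genes, 2.59% of those tested, none of them a member. Lhfpl3 had 73.7, 79.7, 62.0 and 77.6 CPM in the ANGPT2 libraries, against 89.8, 99.5 and 87.8 CPM in the control libraries. Every ANGPT2 library was below every control library, which was so for 3.44% of all genes tested, and no member was higher without overlap, beside 0.959% of genes. Lhfpl3 was low in this class, at 81.4 ± 12.2 CPM over all libraries, beside 73.1 ± 50.3 CPM in microglia. The log2 change was -0.28 ± 0.14 (unadjusted p = 0.0772, adjusted p = 1.00), at -0.30 in batch 1 and -0.33 in batch 2, and -0.18 without the female control of batch 1. Olig2 had 68.4, 56.9, 130.7 and 80.3 CPM in the ANGPT2 libraries, against 56.9, 73.4 and 31.1 CPM in the control libraries. The difference lay in batch 2, where the log2 change was 1.69 with 1 control, and batch 1 gave -0.05, while the pooled value was 0.62 ± 0.32 (unadjusted p = 0.0776, adjusted p = 1.00). Of the other members, Olig1 stood at 0.28 ± 0.22 and Cspg4 at -0.52 ± 0.39, where the Cspg4 level was only 1.92 to 4.85 CPM. By sign, 3 of the 9 members were above 0, beside 49.3% of all genes, and 6 below, beside 50.7%. Without the female control of batch 1, 6 of the 8 members then tested were above 0.

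**Figure D4:**
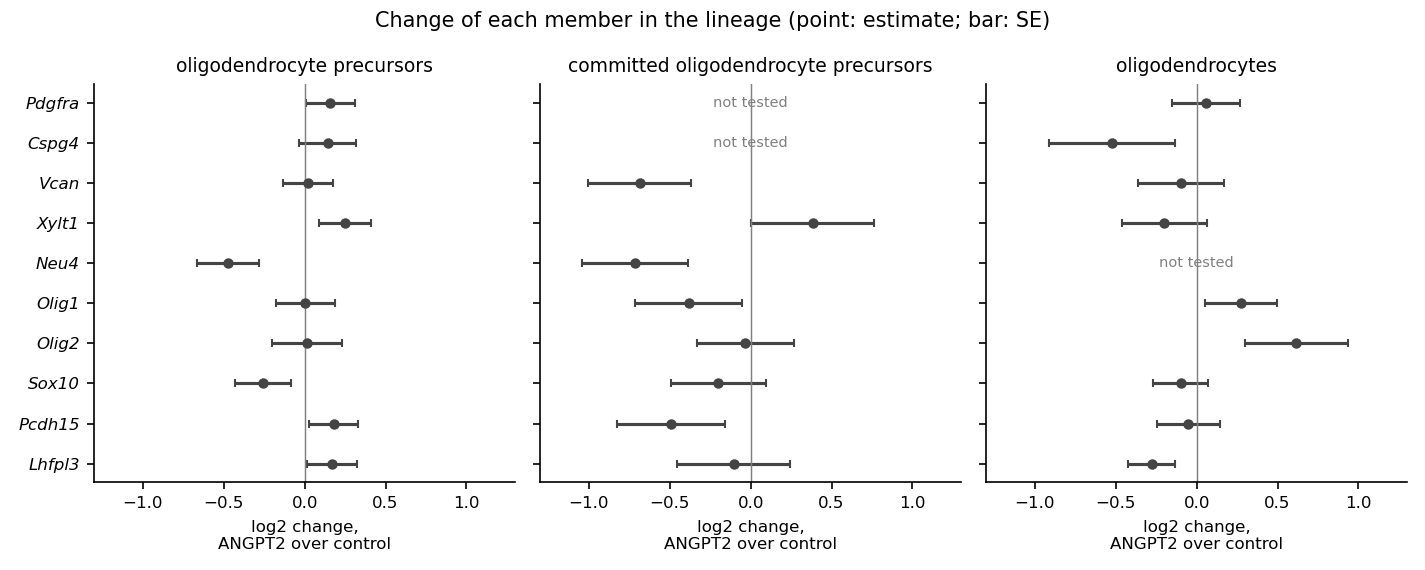
Log2 change of each member (ANGPT2 over control, edgeR, points with bars of ± 1 SE) in precursors, committed precursors and oligodendrocytes, with members below the count filter marked as not tested. None of the values passed the adjusted threshold, and the values furthest from 0 are those of Neu4 (-0.71) and Vcan (-0.69) in committed precursors and Olig2 (0.62) in oligodendrocytes.

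The share of kept nuclei that were precursors was 2.08 ± 0.544% in the ANGPT2 libraries and 2.12 ± 0.0370% in the control libraries (SD, n = 4 and 3). The ANGPT2 libraries spread on both sides of the controls, with 2.29, 1.63, 1.64 and 2.75% in the ANGPT2 libraries, against 2.13, 2.16 and 2.08% in the control libraries (2-sided exact permutation p = 1). Committed precursors made up 0.350 ± 0.150% in the ANGPT2 libraries and 0.387 ± 0.131% in the control libraries (exact permutation p = 0.8). Oligodendrocytes made up 18.9 ± 3.84% in the ANGPT2 libraries and 19.8 ± 2.47% in the control libraries (exact permutation p = 0.829). Adjusted over these 3 comparisons every p was 1, and the 35 relabellings of 7 libraries allow no p under 0.0286.

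Other genes of the members' pathways were read from 9 lists in the 3 lineage stages. In precursors, committed precursors and oligodendrocytes, none of the list genes passed edgeR's threshold. Of the PDGF ligands and receptor signalling genes, 11 of 15 were tested in precursors, 7 above 0 and 4 below. Stat3, a transcription factor activated by growth factor and cytokine receptors, had the smallest unadjusted p of them at a log2 change of -0.82 ± 0.28 (unadjusted p = 0.00652, adjusted p = 0.940). Of 16 chondroitin sulfate synthesis genes tested of 21 in precursors, 7 were above 0 and 9 below, with Chpf2, a chondroitin polymerizing factor gene, at -0.85 ± 0.44 (adjusted p = 0.940). Of 7 core protein and matrix genes tested of 13, 6 were above 0, and Bcan, the brevican gene, was the one below, at -0.20 ± 0.15. All 18 other precursor genes were tested in precursors, 13 above 0 and 5 below, with a median log2 change of 0.09 beside 0.00 over all genes. Sox5 stood at 0.23 ± 0.15 and Sox8, a close relative of Sox10, at -0.54 ± 0.21 (unadjusted p = 0.0174, adjusted p = 0.940). Sox8 was also below 0 in oligodendrocytes, at -0.38 ± 0.15 (unadjusted p = 0.0280, adjusted p = 1.00).

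The committed precursor list had 12 of 15 genes tested in precursors, 4 above 0 and 8 below, with Lims2 at -0.58 ± 0.28. In committed precursors themselves 14 of its genes were tested, 11 above 0, beside 51.6% of all genes tested, and 3 below, beside 48.4%. Their median log2 change was 0.18, beside 0.01 over all genes. Bmp4, a secreted signal made at this stage, was at -0.55 ± 0.35 and Tmem163 at 0.40 ± 0.36. All 15 myelin and mature genes were tested in oligodendrocytes, 12 above 0, beside 49.3% of all genes tested, and 3 below, beside 50.7%. Their median log2 change was 0.06, beside -0.004 over all genes. Opalin stood at 0.45 ± 0.19 and Cnp at 0.44 ± 0.18, both with an edgeR adjusted p of 1.00. The lists were read with all libraries in and not without the female control of batch 1. Of the lineage transcription factors, 14 of 19 were tested in precursors, 7 above 0 and 7 below. Of 11 sialidases and relatives of Lhfpl3 and Pcdh15, 2 were tested in precursors, Lhfpl4 at 0.22 ± 0.29 and Lhfpl2 at -0.12 ± 0.25. Of 10 cell cycle genes only Top2a was tested, at 0.74 ± 0.47 (adjusted p = 0.940), so division of precursors was not measurable at this depth. Summed markers of other cell types in precursors were of like size in both groups for endothelial cells (14.6 to 20.9 CPM in the ANGPT2 libraries, 11.2 to 24.0 CPM in the control libraries). The 7 choroid plexus markers reached 68.1 to 789.3 CPM in the ANGPT2 libraries and 171.7 to 187.4 CPM in the control libraries, and the 11 microglial markers 98.4 to 159.0 CPM in the ANGPT2 libraries and 97.9 to 398.7 CPM in the control libraries. Their part in the values above was not tested.

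In neurons, too, no member passed the test. In excitatory neurons all 10 were tested, no gene of 17728 passed edgeR's threshold (0%), DESeq2 called 0, and 797 genes (4.5%) had an unadjusted p under 0.05, none a member. In inhibitory neurons 7 members were tested, no gene of 13902 passed (0%), DESeq2 called 0, and 250 genes (1.8%) had an unadjusted p under 0.05, none a member. Both neuron classes pooled subtypes with unlike member levels, and inhibitory neurons numbered 359 to 2187 per library. The part of the subtype mix in the pooled values was not tested. The member furthest above 0 was Olig1 in inhibitory neurons, at 0.71 ± 0.42 (edgeR adjusted p = 0.971). Its level there was only 3.12 to 11.9 CPM over the libraries, beside 17.9 ± 6.01 CPM in microglia. The member furthest below was Pcdh15 in excitatory neurons. Pcdh15 had 706.4, 693.3, 803.3 and 849.5 CPM in the ANGPT2 libraries, against 659.6, 2401 and 735.9 CPM in the control libraries. The female control of batch 1 alone was high, and the other 6 libraries lay at 659.6 to 849.5 CPM. The log2 change was -0.68 ± 0.44 (edgeR adjusted p = 0.896), and without that library it was 0.28 (adjusted p = 0.967), so 1 library set its direction. The log2 change of Xylt1 moved likewise without that library, to 0.35 beside -0.01 with it in excitatory neurons, and to 0.37 beside -0.06 in inhibitory neurons, with adjusted p of 0.967 and 1.00. In oligodendrocytes, where Xylt1 was 62.7 CPM in that library and 24.8 to 41.5 CPM in the others, its log2 change was 0.24 without the library, beside -0.20 with it. Pcdh15 was at 0.19 without it in oligodendrocytes, beside -0.05, and at 0.19 in inhibitory neurons, beside -0.01.

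The raised Pcdh15 of that library was seen in most excitatory clusters separately. Of 13 excitatory clusters outside the dentate gyrus that could be compared, it had the highest Pcdh15 level of all libraries in 10, with a median of 2.37 times the median of the other libraries. In the cluster led by Adam33, Rorb and Kcnh5, Pcdh15 was 6609 CPM in this library, beside 865.7 to 1482 CPM in the other 6. In the cluster led by Igfn1, Stard8 and Gm48530 it was 4475 CPM, beside 705.7 to 1074 CPM. The 3 clusters without the pattern were the thalamic cluster (430.9 CPM, beside 289.2 to 569.4 CPM) and the clusters led by 4921539H07Rik and by Ccbe1. In both of those Pcdh15 was low in most libraries, at 64.3 and 55.5 CPM in this one. Xylt1 was highest in this library in 12 of the 13 clusters, at a median of 1.56 times the others. In dentate granule neurons Pcdh15 was 635.4 CPM in this library, beside 59.7 to 190.8 CPM, and Xylt1 was 361.6 CPM, beside 62.7 to 98.4 CPM.

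Some other genes were also high in the same library. Gm15398, on the opposite strand within Pcdh15, was 104.6 CPM, beside 12.3 to 21.9 CPM, in the first of these clusters, and was highest in this library in 7 of the 13. Bdnf, which encodes a neurotrophin induced by neuronal activity and was chosen after its values were seen, was highest in this library in 10 of the 13, at a median of 3.70 times the others. Nr4a2 was highest in it in 5 of the 13, but its median was 0.930 times the others, so it was not raised in most clusters. Pcdh15 was also highest in this library in astrocytes (215.4 CPM, beside 34.1 to 70.4 CPM) and in microglia (305.3 CPM, beside 70.0 to 103.9 CPM). In precursors, where Pcdh15 is highest as a class, this library was at 4466 CPM, within the 4142 to 5416 CPM of the others. What set this library apart was not tested.

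**Figure D5:**
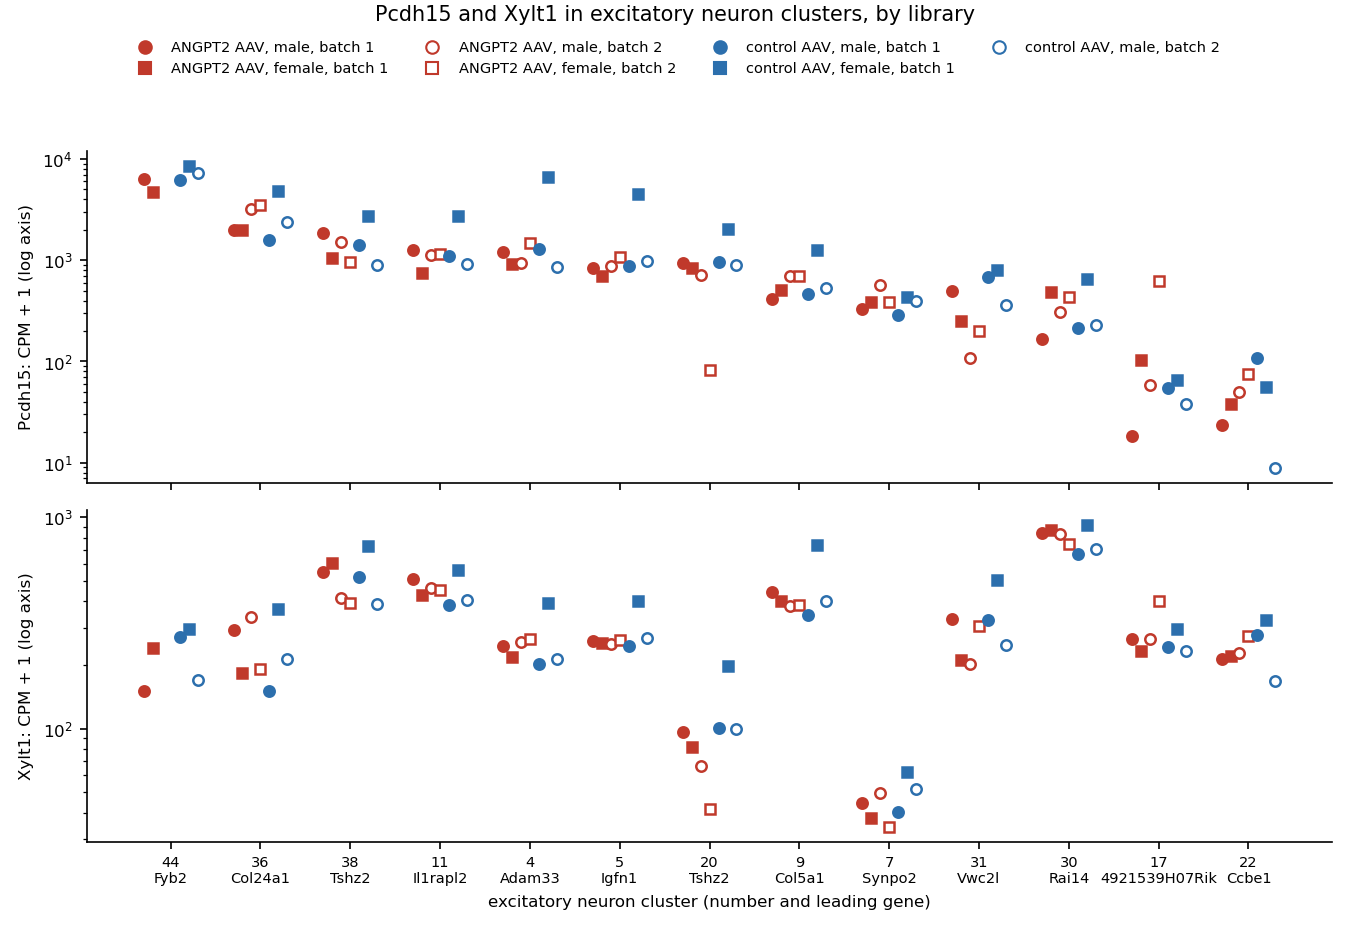
Levels of Pcdh15 (upper panel) and Xylt1 (lower panel) as CPM + 1 on log axes in each excitatory neuron cluster, with 1 point per library, ANGPT2 libraries in red left of control libraries in blue, circles for males, squares for females, filled for batch 1 and open for batch 2. The filled blue square, the female control of batch 1, is the highest point for Pcdh15 in 10 of the 13 clusters and for Xylt1 in 12 of them.

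In astrocytes 5 members were tested, and no gene of 9600 passed edgeR's threshold (0%), while DESeq2 called 0. At an unadjusted p under 0.05 there were 313 genes (3.26%), of which 2 were members, Pcdh15 and Lhfpl3. Pcdh15 averaged 81.4 ± 60.3 CPM in astrocytes, beside 118.1 ± 83.2 CPM in microglia. Lhfpl3 averaged 73.8 ± 40.4 CPM in astrocytes, beside 73.1 ± 50.3 CPM in microglia, so neither gene stood above the microglial level. Pcdh15 had 61.1, 70.4, 34.1 and 56.1 CPM in the ANGPT2 libraries, against 65.6, 215.4 and 67.2 CPM in the control libraries. For Pcdh15 the log2 change was -0.92 ± 0.37 (unadjusted p = 0.0250, adjusted p = 0.991), and without the female control of batch 1 it was -0.12. With no filter on low counts Pcdh15 passed, at -0.90 (edgeR adjusted p = 0.00373), as 1 of 46 genes called. That control held the highest value, and the unfiltered test was not run without it. Lhfpl3 had 43.4, 97.4, 36.0 and 42.4 CPM in the ANGPT2 libraries, against 81.6, 149.9 and 66.0 CPM in the control libraries. For Lhfpl3 the log2 change was -0.72 ± 0.32 (unadjusted p = 0.0433, adjusted p = 0.991), and without the same control it was -0.30. Vcan, at 0.04 with all libraries, was at 0.64 without it (unadjusted p = 0.0230, adjusted p = 1.00).

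Over whole libraries, where the shares of cell types and their levels cannot be told apart, all 10 members were tested and none passed. No gene of 19991 passed edgeR's threshold (0%), DESeq2 called 2, neither of them a member, and 541 genes (2.71%) had an unadjusted p under 0.05, none a member. Olig2 at 0.47 ± 0.27 and Olig1 at 0.33 ± 0.21 were furthest above 0, and Pcdh15 at -0.58 ± 0.37 was furthest below (edgeR adjusted p = 1.00 for each). Without the female control of batch 1, Pcdh15 was at 0.17, and Xylt1 was at 0.33 beside -0.02 with it. The sex of the mice was tested as a modifier of the AAV difference in the 3 lineage stages. Only 1 control was female, the library that stood apart, so this test rests on it and cannot tell sex from that mouse. In precursors 8 genes passed, none of them a member. No member passed in the other stages either, and the smallest unadjusted p was that of Olig2 in oligodendrocytes (0.0399, adjusted p = 1.00).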

How the data were processed

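Nuclei from 7 mouse libraries were analysed from the deposited UMI counts per gene and nucleus, which the authors made with Cell Ranger 6.1.2 on mm10/GRCm38, per the submitters' processing notes. Whether intronic reads were counted is not given in the sources used here. Nuclei with fewer than 300 genes or over 5% mitochondrial UMIs and called doublets were removed. Nuclei were clustered (2500 variable genes without the members, 40 components, 15 neighbours, Leiden resolution 1, leidenalg 0.10.2, Python 3.11.15) into 46 clusters, of which 10 stayed unnamed. For each class the counts of a library were added up and treatment was tested with edgeR 4.0.16 in R 4.3.3 (TMM, genes kept by its filter at 10 counts in enough libraries and 15 in total, quasi-likelihood, Benjamini-Hochberg threshold 0.05). CPM values use the summed UMIs of the class, and depth limits the precision: 53693 to 328219 UMIs per library in committed precursors. Each library is 1 mouse. DESeq2 1.42.0, other filters, sex, batch, clustering resolution 2, doublets kept, thinning to 1000 UMIs and leaving out each library were alternatives.

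The members and lists were chosen with earlier results of these data known. All members were named, with up to 2 higher and 2 lower genes per list and class by smallest unadjusted p, of which some are printed, and the 3 nearest genes by correlation. The main tests had treatment as their only term. The labels give the batch, so batch served as the replicate block in the alternatives only. Deviations of same-batch libraries of different groups correlated at -0.101 to 0.189 in precursors (6 pairs), against -0.167 to 0.0814 for other-batch pairs, and at 0.0403 to 0.563 against -0.495 to 0.140 in whole libraries.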

Additional observations from a re-analysis of the deposited data

Results flagged for a closer look

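Of 122 groups of libraries examined, 15 held a library far from the rest of its group by Dixon's test at the 95% level. Chance alone gives about 1 in 20 for independent groups. These groups share libraries and are not independent, so the count cannot be weighed against that rate. In 8 of the 15 flagged groups the distant library was the female control of batch 1.

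Among the ANGPT2 libraries alone, Pdgfra in precursors was 792.2 CPM in the batch 2 male, beside 676.3 to 680.7 CPM in the other 3. Lhfpl3 in committed precursors was 1042.5 CPM in the batch 1 male, beside 1386 to 1448 CPM. Lhfpl3 in astrocytes was 97.4 CPM in the batch 1 female, beside 36.0 to 43.4 CPM. Neu4 over the whole library was 4.53 CPM in the batch 2 male, beside 3.49 to 3.64 CPM. The share of committed precursors was 0.573% in the batch 1 male, beside 0.251 to 0.294%.

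Among all 7 libraries, Sox10 in committed precursors was lowest in the ANGPT2 batch 2 female at 111.7 CPM, beside 232.9 to 302.0 CPM. Xylt1 in endothelial nuclei was highest in the ANGPT2 batch 1 male at 190.2 CPM, beside 26.7 to 85.5 CPM. The other 8 were highest in the female control of batch 1. Pcdh15 was 3144 CPM in other excitatory neurons (783.9 to 1029 CPM elsewhere), 635.4 CPM in dentate granule neurons (59.7 to 190.8), 215.4 CPM in astrocytes (34.1 to 70.4) and 305.3 CPM in microglia (70.0 to 103.9). Xylt1 was 361.6 CPM in dentate granule neurons (62.7 to 98.4) and 85.5 CPM in Adarb2 interneurons (36.0 to 56.9). Lhfpl3 was 2465 CPM in committed precursors (795.2 to 1448) and 179.3 CPM in microglia (33.1 to 81.9).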

How the results depend on the processing

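Across the alternatives other than leaving out a library, 503 of 528 member log2 changes kept their direction and side of the threshold, and 342 of 403 did with 1 library left out. With sex as a covariate, the sign turned for Vcan in precursors (-0.00140), Vcan in astrocytes (-0.0203), Sox10 in whole libraries (0.00739). At clustering resolution 2, the sign turned for Vcan in precursors (-0.00381), Olig1 in precursors (-0.0334), Olig2 in precursors (-0.00574), Olig2 in committed precursors (0.0907), Pdgfra in inhibitory neurons (-0.17), Pcdh15 in inhibitory neurons (0.0512), Lhfpl3 in inhibitory neurons (0.0475). With batch as the replicate block, the sign turned for Olig1 in precursors (-0.0203), Olig2 in precursors (-0.00899), Pcdh15 in oligodendrocytes (0.0115), Vcan in excitatory neurons (-0.0123), Pcdh15 in inhibitory neurons (0.0761), Lhfpl3 in whole libraries (-0.0236). With the replicate block and sex, the sign turned for Olig1 in precursors (-0.0149), Pcdh15 in inhibitory neurons (0.0671), Sox10 in whole libraries (0.0823), Lhfpl3 in whole libraries (-0.0195). With called doublets kept, the sign turned for Olig2 in committed precursors (0.0775), Lhfpl3 in committed precursors (0.00883), Olig1 in excitatory neurons (0.10). With no filter on low counts, the sign turned for Vcan in excitatory neurons (-0.00859). The same setting called 29 genes in precursors, 2 in committed precursors, 41 in oligodendrocytes and 46 in astrocytes, where Pcdh15 passed at -0.90 (edgeR adjusted p = 0.00373). The replicate block called 1 gene in committed precursors, the block with sex called 2 there and 2 in astrocytes, and DESeq2 called 2 over whole libraries. The cause was not tested. The replicate block changed no call of a member. With 1 library left out in turn, members whose sign turned had these ranges of log2 change. In precursors they were Vcan -0.14 to 0.11, Olig1 -0.12 to 0.12, Olig2 -0.17 to 0.20. In committed precursors they were Olig2 -0.15 to 0.0744, Lhfpl3 -0.42 to 0.55. In oligodendrocytes they were Vcan -0.27 to 0.21, Xylt1 -0.47 to 0.24, Sox10 -0.25 to 0.12, Pcdh15 -0.17 to 0.19. In excitatory neurons they were Cspg4 -0.21 to 0.16, Vcan -0.0573 to 0.14, Xylt1 -0.22 to 0.35, Olig1 -0.13 to 0.0831, Pcdh15 -1.01 to 0.28, Lhfpl3 -0.0795 to 0.17. In inhibitory neurons they were Pdgfra -0.11 to 0.60, Vcan -0.29 to 0.19, Xylt1 -0.28 to 0.37, Pcdh15 -0.21 to 0.19, Lhfpl3 -0.24 to 0.12. In astrocytes they were Vcan -0.23 to 0.64. In whole libraries they were Vcan -0.0209 to 0.21, Xylt1 -0.18 to 0.33, Sox10 -0.18 to 0.18, Pcdh15 -0.85 to 0.17, Lhfpl3 -0.0337 to 0.11. Without the female control of batch 1, 2 genes were called in precursors, and 0 without any other library. The difference in share ranged over -0.269 to 0.103 percentage points for precursors, -0.113 to 0.00569 for committed precursors and -2.30 to 0.782 for oligodendrocytes. Thinning to 1000 UMIs moved 37 of 40 shares of nuclei with a UMI. With 4 and 3 mice, and 15 to 41 committed precursors per library, the data limit how small a change could be measured.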
